A study of Mus musculus with 2 samples.

Results

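Among 9415 blood cells that passed the cell filters, 191 were T cells without a Cd8 transcript that carried an innate-like set of genes. They were picked by their own counts of unique molecular identifiers (UMIs, 1 per captured RNA molecule): a sum of at least 2 over Cd3d, Cd3e and Cd3g, 0 over Cd8a and Cd8b1, at most 1 over the B cell genes Cd79a, Cd79b and Ms4a1, and an innate sum of at least 3 over Cxcr3, Cxcr6, Il2rb, Cd160, Klrc1, Gzmm and Xcl1. The cells came from female C57Bl/6 mice aged 10 weeks. In the mutant mice 1 copy of Mvk, the gene of mevalonate kinase, carried V377I and the other was del91, and the control mice were Mvk+/+. Each genotype was 1 library, made from the blood of 3 mice mixed before mononuclear cells were isolated, freed of red cells and sorted as negative for DAPI (dead cells) and for the red cell antigen Ter119. The mutant library gave 57 of these T cells among 4190 cells and the wildtype library 134 among 5225. With 1 pool per genotype, genotype, pool and library cannot be told apart, and no test between genotypes was possible.

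Innate-like T cells leave the thymus with a preset effector programme in place of the naive state. Invariant natural killer T (NKT) cells, many gamma-delta T cells and mucosal-associated T cells belong to them, and they share with NK cells the receptor chain Il2rb for the interleukins Il2 and Il15, lectin-like receptors of the Klr family and fast release of cytokines. Cxcr6 guides such cells to the liver and other tissues, and Xcl1 is a chemokine that attracts cross-presenting dendritic cells. For comparison, 3 kinds of cell were set beside the chosen cells. Memory-like CD8 T cells met the same criteria with a Cd8 sum of at least 2 (42 mutant and 107 wildtype cells). NK cells had a sum of at least 3 over the NK receptor genes Ncr1, Klrb1c, Klre1, Klra8, Klra4 and Klra9 and a Cd3 sum of at most 1 (191 and 866 cells). Other CD8-negative T cells had an innate sum of 0 (1157 and 1148 cells).

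Sequencing depth was 14513059 UMIs in all for the mutant and 15385199 for the wildtype, and the filtered cells had medians of 1968 and 2036 UMIs. The innate-like CD8-negative T cells were close in depth between libraries, with medians of 2570 UMIs and 1138 genes in the mutant and 2615.5 UMIs and 1174.5 genes in the wildtype. They were deeper than NK cells (2020 and 1672 UMIs) and other CD8-negative T cells (1944 and 2030.5) and shallower than memory-like CD8 T cells (3308.5 and 3668). No barcode of these T cells occurred among the filtered cells of the other library, while 28 barcodes were shared over all filtered cells. A doublet score above 0.2 was reached by 1 mutant and 3 wildtype cells of the set. In 2 mutant cells haemoglobin took 15.98% and 46.6% of all UMIs. Free RNA, measured in barcodes with at most 20 UMIs, was estimated at 4.05% of the mutant UMIs and 3.49% of those in the wildtype part of the set. The estimate rests on Cd79a, Cd79b, Ms4a1, Cd74 and H2-Aa in these cells. The rule itself limits Cd79a, Cd79b and Ms4a1, so it partly fixed the estimate.

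The gates cut through continuous distributions. Of T cells with an innate sum of at least 3, 57 mutant cells had a Cd8 sum of 0, 15 a sum of 1 and 42 a sum of at least 2, and the wildtype counts were 134, 32 and 107. Just inside the innate gate lay 12 mutant and 25 wildtype cells with a sum of 3, and just outside 20 and 28 with a sum of 2. At the Cd3 gate, 3 mutant and 17 wildtype cells had a sum of exactly 2, and 22 and 46 barcodes that met all other criteria had a sum of 1. A Cd8 sum of 0 is a limit of detection as well as a state: how many of these cells carried undetected Cd8 transcripts was not tested.

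**Figure D1:**
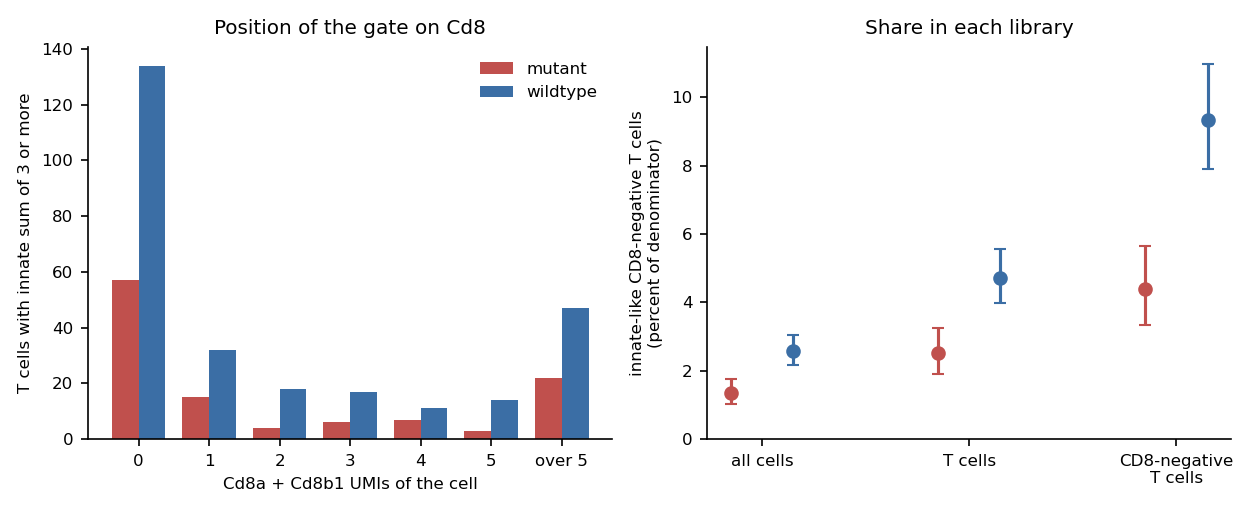
The left panel counts T cells with an innate sum of at least 3 by their Cd8a + Cd8b1 UMIs in each library, with the chosen cells in the bars at 0 (57 mutant, 134 wildtype). The right panel gives them as percent of all cells, of T cells and of CD8-negative T cells (points) with exact 95% binomial intervals (bars): the mutant point is the lower one for each denominator.

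The label was checked on genes outside the gate. At least 1 UMI of a list of 10 T lineage genes (Cd5, Cd6, Cd28, Lat, Trat1, Bcl11b, Tcf7, Il7r, Icos and Cd40lg) was found in 94.7% of mutant and 93.3% of wildtype members of the set, against 44.5% and 43.1% of NK cells and 15.1% and 19.7% of B cells. The summed level of that list was 1937 CPM (UMIs of a gene scaled to a fixed library total) in mutant and 1825 in wildtype cells of the set, against 298 and 349 in NK cells and 2797 and 2998 in other CD8-negative T cells. The receptor NK1.1, encoded by Klrb1c and not used to choose these cells, had a UMI in 50.9% of mutant and 47.8% of wildtype cells. Its share was 1.18% and 3.94% in B cells, which should lack it and had medians of 1591 and 1576 UMIs. T lineage genes and an NK receptor were thus both found in each library. NK receptor RNA did not set most of these cells apart from memory-like CD8 T cells. The 6 NK receptor genes of the NK gate summed to 912 (mutant) and 1273 CPM (wildtype) in the set and 340 and 312 in memory-like CD8 T cells. Cells of the set with an NK receptor sum of at most 2 and no Cd4 UMI had 220 and 304 CPM, a level limited by that cut. Zbtb16, the PLZF transcription factor of NKT cells, had a UMI in 4 mutant and 8 wildtype cells. Cd4 had one in 7 and 14 cells, 12.3% and 10.4%, against 21.8% and 24.9% of other CD8-negative T cells. T cell receptor genes were not used here, so NKT and gamma-delta T cells were not separated. The set is therefore called innate-like CD8-negative T cells.

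Of the genes of the innate sum, which chose the cells, Gzmm and Xcl1 were carried in different proportions by the set and by memory-like CD8 T cells. The other genes of the sum are given for the set alone. Il2rb had a UMI in 73.7% of mutant and 63.4% of wildtype cells of the set, Xcl1 in 50.9% and 49.3%, Cxcr6 in 40.4% and 50%, Klrc1 in 43.9% and 47.0%, Cd160 in 43.9% and 44.0% and Cxcr3 in 43.9% and 47.0%. Gzmm, the gene of granzyme M, was found in 7.02% and 8.21%. In memory-like CD8 T cells Gzmm was found in 54.8% and 47.7%, and Xcl1 in 19.0% and 32.7%. After each cell was thinned to 800 UMIs, Gzmm stood at 1.75% and 1.49% in the set and 31.0% and 21.5% in memory-like CD8 T cells. These are values of the rule and are given as a description.

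Innate-like CD8-negative T cells took a smaller share of the mutant library. They were 1.36% of all mutant cells (exact Clopper-Pearson 95% interval 1.03 to 1.76) and 2.56% of wildtype cells (2.15 to 3.03). Of T cells they were 2.52% (1.91 to 3.25) in the mutant and 4.72% (3.97 to 5.57) in the wildtype, a ratio of 0.533 (0.384 to 0.732). Of CD8-negative T cells they were 4.39% (3.34 to 5.65) and 9.34% (7.89 to 10.97), a ratio of 0.470 (0.338 to 0.645). The intervals, exact and for counting error only, do not overlap for any of the 3 denominators. Memory-like CD8 T cells were also the scarcer in the mutant, at 1.86% and 3.77% of T cells (ratio 0.492, 0.336 to 0.709), and NK cells were 4.56% and 16.6% of all cells (ratio 0.275, 0.234 to 0.322). When each cell was thinned to 800 UMIs before gating, 20 mutant and 35 wildtype cells were left in the set. The ratio over CD8-negative T cells was then 0.658, with a counting interval of 0.360 to 1.17 that includes 1. Neither this interval nor those above cover the spread between mice or pools.

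The set was a mixture, and 3 exclusive gates showed it. Cells with an NK receptor sum of at least 3 numbered 15 in the mutant and 54 in the wildtype, 26.3% (15.5 to 39.7) and 40.3% (31.9 to 49.1) of the set. Cells below that sum with a Cd4 UMI numbered 6 and 9, and those without one 36 and 71, which is 63.2% and 53.0%. The subset rich in NK receptors was the one whose share of CD8-negative T cells differed most in value between the libraries, 1.16% against 3.77% (ratio 0.307, 0.161 to 0.552). Without it the remaining cells were 3.24% and 5.58% of CD8-negative T cells (ratio 0.580, 0.389 to 0.853). NK cells, which carry the same receptors, were scarcer in the mutant as well, and free RNA of NK cells was lower there: the free RNA level of Gzma was 0.208 times that of the wildtype (0.178 to 0.242). Their part in the share of this subset was not tested.

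The NK receptor-rich subset had genes of NK cell killing and signalling at levels that the other cells of the set did not reach. It was cut on NK receptors, so genes that go with these move with the choice of cells. Its 13 cytotoxic granule genes summed to 11337 (mutant) and 10836 CPM (wildtype). Cells with fewer NK receptors had 3664 and 5177 CPM with a Cd4 UMI and 3958 and 4799 without. Gzma, the gene of granzyme A, was at 3712 (mutant) and 3894 CPM (wildtype) in the subset. Tyrobp, the adaptor chain of activating NK receptors, was at 1485 and 1407 CPM, and the transcription factor gene Irf8 at 485 and 525. T lineage genes were present too: 12 of 15 mutant and 48 of 54 wildtype cells had at least 1 UMI of the T lineage list, and their median Cd3 sums were 4 and 6. Of NK cells, 44.5% and 43.1% had such a UMI. All 3 mutant cells of the set with a Cd3 sum of exactly 2, and most of the 17 wildtype ones, were in this subset. They lay next to the NK gate, which ended at a Cd3 sum of 1. How far NK cells with stray Cd3 UMIs enter this subset and its share was not tested. How far doublets of a T and an NK cell enter this subset was not tested beyond the score above, which 1 of 15 and 2 of 54 cells exceeded.

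Among the cells with fewer NK receptor UMIs, Cxcr6 marked a further split, which was chosen after their values were seen and is given without a test. Cxcr6 was detected in 17 mutant and 44 wildtype cells of this kind and not in 25 and 36, with median depths of 2570 and 2395 UMIs where it was detected and 2695 and 2864.5 where it was not. Ckb, brain-type creatine kinase, stood at 371 (mutant) and 227 CPM (wildtype) in cells with Cxcr6, against 13.7 and 18.03 without it. Socs2, an inhibitor of cytokine receptor signalling, stood at 371 and 157 CPM against 27.3 and 27.0, and Asb2, a ubiquitin ligase subunit, at 302 and 87.3 against 27.3 and 9.02. Both libraries thus had all 3 genes higher where Cxcr6 was detected. Ifng, the gene of interferon gamma, was at 139 and 174 CPM with Cxcr6 and 13.7 and 9.02 without. Id2, a regulator that innate-like lymphocytes need, was at 1625 and 925 against 328 and 388. Rora had 163 and 192 CPM with Cxcr6 and 82.0 and 54.1 without.

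The cells without Cxcr6 and with few NK receptors had more Ikzf2 RNA than those with it. Ikzf2, the gene of the Ikaros family factor Helios, was at 232 (mutant) and 198 CPM (wildtype) in cells without Cxcr6, against 69.6 and 87.3 with it. Ly6c2, a surface antigen of memory T cells, was at 779 and 947 CPM in cells without Cxcr6. In cells with Cxcr6 the libraries stood apart for Ly6c2, at 92.9 (mutant) and 637 CPM (wildtype).

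**Figure D2:**
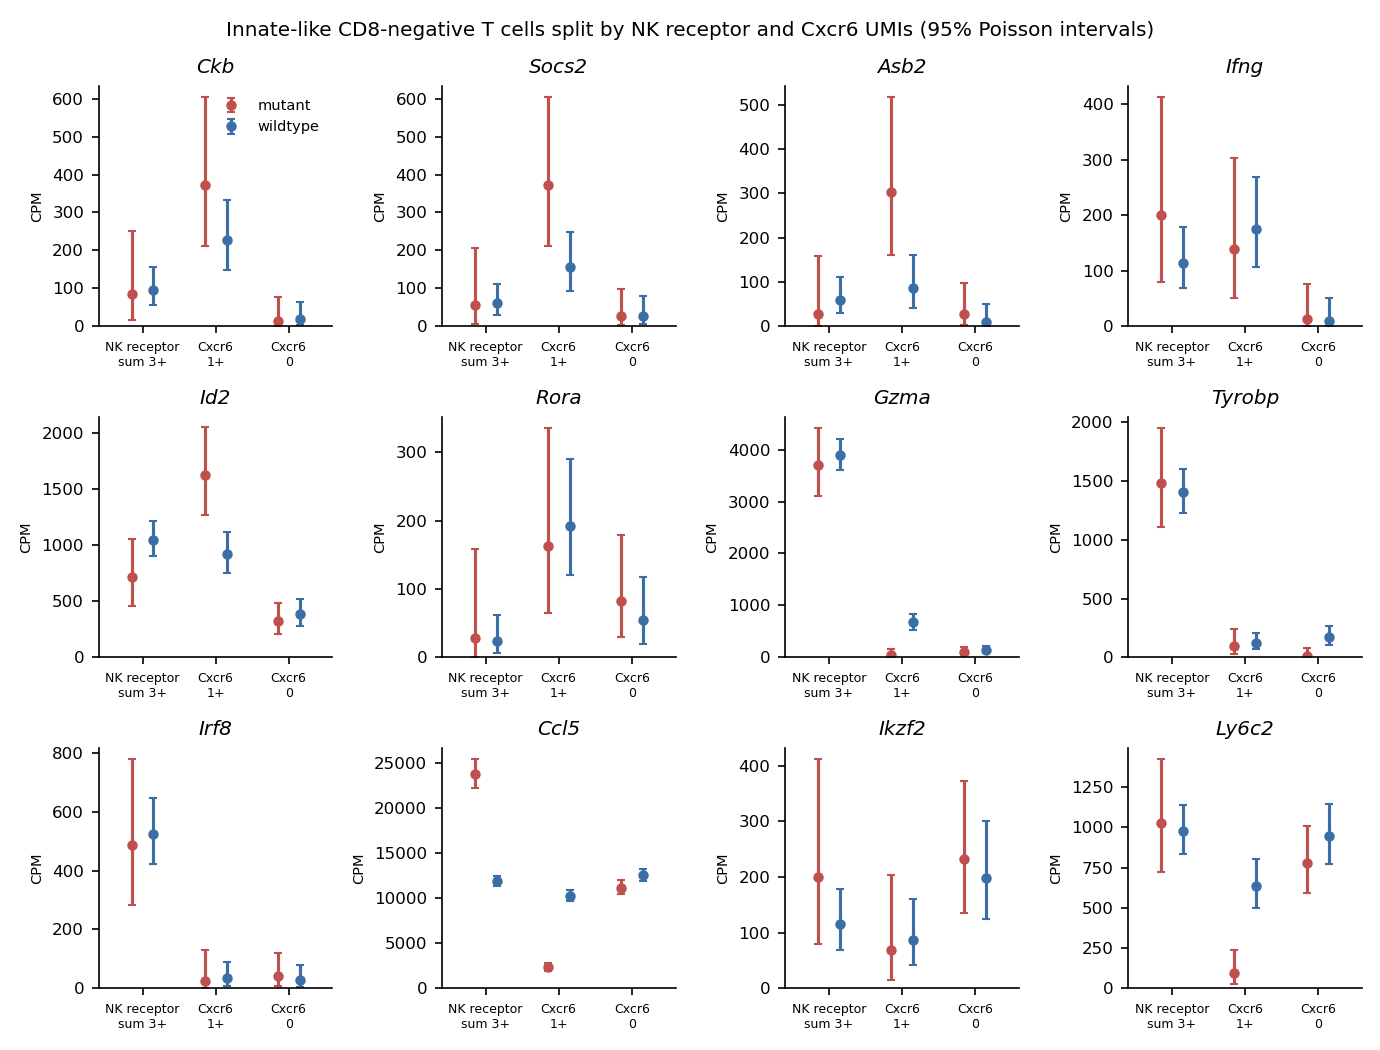
Levels in CPM of 12 genes in the 3 exclusive subsets of the innate-like CD8-negative T cells (NK receptor sum of at least 3; fewer with Cxcr6; fewer without Cxcr6), mutant and wildtype as points with exact 95% Poisson intervals for counting error. Ckb, Socs2 and Asb2 are highest with Cxcr6, Gzma, Tyrobp and Irf8 are highest with NK receptors, and Ikzf2 is lowest with Cxcr6.

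The comparison with memory-like CD8 T cells asks what distinguishes T cells of a like innate sum that differ in Cd8. UMIs were summed per library and cell type, and edgeR's quasi-likelihood test was fitted to all 8 sums with library as a block (3 residual degrees of freedom). Genes of the rule were left out of the adjustment, and a gene was called at a Benjamini-Hochberg adjusted p under 0.05 over the 5436 genes tested. The replicates are 2 pools of different genotype. With library as a block, p rests on how far the differences between cell types disagree between these pools. It does not measure the spread between mice of 1 genotype. Log2 differences are given with their standard error (SE). Besides genes of set lists, the genes named below were picked as at least 1.5-fold apart in the same direction in each library. Their agreement between libraries was fixed by that choice. In this contrast 61 genes were higher in the innate-like CD8-negative T cells (1.12% of those tested) and 118 lower (2.17%). Of the lower genes 71 were ribosomal protein genes, of 99 such genes tested.

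Socs2 showed the clearest separation. It had 20 UMIs (132 CPM) in the mutant and 31 UMIs (79.2 CPM) in the wildtype cells of the set and 0 UMIs in memory-like CD8 T cells of both libraries. Over both libraries together this was at least 17.2-fold higher, counted against a floor of 3 UMIs over the group (94.0 against 5.47 CPM; edgeR adjusted p = 0.000806). NK cells had 9.30 and 4.92 CPM and other CD8-negative T cells 3.02 and 2.099. As its choice as a named gene required, Socs2 was higher in the set than in the 3 other types in both libraries. It had a UMI in 11 mutant and 20 wildtype cells of the set. The gene (ENSMUSG00000020027) lies on the minus strand of chromosome 10 from 95385362 to 95417180 (GRCm38).

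Asb2 and Ckb followed the same order. Asb2 (ENSMUSG00000021200, chromosome 12, 103321142 to 103356001) had 16 UMIs (106 CPM) in mutant and 21 UMIs (53.7 CPM) in wildtype cells of the set, against 1 UMI in memory-like CD8 T cells of each library (log2 difference 3.94, SE 0.84, edgeR adjusted p = 0.00824). Its level in NK cells was 2.33 and 1.85 CPM, and other CD8-negative T cells had 1 mutant and 0 wildtype UMIs. Ckb (ENSMUSG00000001270, chromosome 12, 111669361 to 111672338) stood at 132 and 112 CPM, against 22.2 and 7.26 in memory-like CD8 T cells (log2 difference 3.17, SE 0.51, edgeR adjusted p = 0.00193), 9.30 and 3.08 in NK cells and 25.5 and 12.6 in other CD8-negative T cells. In each library both genes were higher in the set than in any of the 3 other types. Against memory-like CD8 T cells and NK cells their choice as named genes had fixed this direction. For Asb2 it was fixed against other CD8-negative T cells as well.

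Ifng, Bhlhe40 and Id2, a cytokine and 2 regulator genes, were higher too. Ifng was at 92.6 and 102 CPM, against 7.38 and 24.2 in memory-like CD8 T cells (log2 difference 2.13, SE 0.43, edgeR adjusted p = 0.00554). Bhlhe40, a transcription factor gene that supports interferon gamma production, was at 152 and 133 CPM against 36.9 and 31.5 (log2 difference 1.87, SE 0.32, edgeR adjusted p = 0.00193). Id2 was at 787 and 826 CPM against 347 and 327 (log2 difference 1.09, SE 0.17, edgeR adjusted p = 0.00123). Each of these had both libraries of the set above both of the other type. For Ifng and Bhlhe40 the choice as named genes had fixed the direction in each library. Ikzf2 (178 and 130 CPM against 36.9 and 60.5, adjusted p = 0.0366) and Tnfrsf18, the co-stimulatory receptor GITR (165 and 248 against 88.6 and 94.4, adjusted p = 0.00957), were called by edgeR as well. These are the 2 tested genes of the regulatory T cell list, while Foxp3, which defines those cells, had 0 UMIs in the set: 0 of 57 mutant and 0 of 134 wildtype cells, which allows shares of up to 5.26% and 2.24%.

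Izumo1r, the folate receptor 4 of some T cells, was at 99.2 and 58.8 CPM against 0 and 7.26 in memory-like CD8 T cells (edgeR adjusted p = 0.00364), and at 109 and 113 CPM in other CD8-negative T cells. It was thus higher in the set than in memory-like CD8 T cells and lower than in other CD8-negative T cells (log2 difference -0.89, SE 0.24, edgeR adjusted p = 0.0113). The 2 tested helper genes were both called higher than in memory-like CD8 T cells: Cd4 had 11 and 17 UMIs against 0 and 1, and Cd40lg, the ligand of CD40, 13 and 14 UMIs against 1 and 0 (edgeR adjusted p = 0.00364 and 0.0124). The surface antigen Ly6a was at 165 and 161 CPM against 44.3 and 41.1 (log2 difference 1.74, SE 0.31, edgeR adjusted p = 0.00251). Ccr2, a receptor for inflammatory chemokines, was at 185 and 143 CPM against 29.5 and 65.3 (log2 difference 1.24, SE 0.34, edgeR adjusted p = 0.0446).

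Some calls of this contrast were lost when the NK receptor-rich cells were left out, which also left fewer cells. That setting called 24 genes higher and 44 lower. Irf8 was at 139 and 240 CPM against 36.9 and 36.3 (log2 difference 2.32, SE 0.40, edgeR adjusted p = 0.00213). Without the NK receptor-rich cells of the set its difference was -0.33 (adjusted p = 0.937), and with few NK receptors in both cell types it was 0.95 (adjusted p = 0.798). Spry2, an inhibitor of growth factor signalling, was at 165 and 120 CPM against 14.8 and 36.3 (log2 difference 1.89, edgeR adjusted p = 0.0116). Its difference was 1.26 (adjusted p = 0.375) without those cells and 2.29 (0.0859) with few NK receptors in both. Anxa1, the gene of annexin A1, was at 92.6 and 74.1 CPM against 7.38 and 19.4 (log2 difference 2.06, edgeR adjusted p = 0.021), with 1.55 (0.299) and 2.88 (0.0584) in those 2 settings. For Tesc and Ppm1j the call was lost without the NK receptor-rich cells (adjusted p = 0.0549 and 0.0851) while the difference stayed near its size, at 1.98 beside 2.07 and at 2.04 beside 1.97. Ppm1j also lost it under DESeq2 (0.118) and with an innate sum of at least 4 (0.0747). Lmo4 kept the call without the NK receptor-rich cells (edgeR adjusted p = 0.047) and lost it under DESeq2 (0.0841) and with an innate sum of at least 4 (0.166). Socs2, Asb2, Izumo1r, Ckb, Ifng and Bhlhe40 stayed called without the NK receptor-rich cells, with edgeR adjusted p between 0.0031 and 0.0489. Where both cell types were limited to few NK receptors, Ifng had an adjusted p of 0.0846 and a difference of 1.67. DESeq2 gave no adjusted p for Socs2 and Asb2 in this contrast.

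Lower than in memory-like CD8 T cells were genes of the naive and central memory state. Ccr7, the lymph node homing chemokine receptor, was at 106 (mutant) and 171 CPM (wildtype) in cells of the set, against 487 and 532 (log2 difference -1.99, SE 0.19, edgeR adjusted p = 2.52e-06). Dapl1 was at 59.5 and 28.1 CPM against 148 and 225 (log2 difference -2.64, SE 0.32, edgeR adjusted p = 7.93e-05). Il6ra, the interleukin-6 receptor, had 0 UMIs in mutant and 3 in wildtype cells of the set, against 66.5 and 67.8 CPM (log2 difference -3.78, SE 0.66, edgeR adjusted p = 0.00213). In each case the libraries of the 2 types did not overlap, where the choice as named genes had fixed the direction in each library. Of the 6 naive T cell genes 3 were called lower and 0 higher, with a list median of -0.87 beside 0.019 over all genes tested. Fam169b, Itm2a, Rgs10, Plac8 and Slc25a4 were also lower, by log2 differences of -2.92, -1.79, -1.31, -1.27 and -1.27. Fcgrt, Lcn4, Ctss and Plcxd2 were lower by log2 differences of -3.68, -2.05, -1.37 and -1.27. Without the NK receptor-rich cells the differences were -3.60, -1.67, -1.05 and -0.98, with edgeR adjusted p = 0.0586, 0.238, 0.114 and 0.298. With an innate sum of at least 4 the calls of Fcgrt, Lcn4 and Plcxd2 were lost as well (0.112, 0.107 and 0.443).

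Cytotoxic genes were not called between the set and memory-like CD8 T cells. Of 13 cytotoxic granule genes 0 were called in either direction (list median log2 difference 0.24). Over all genes tested, 1.12% were called higher and 2.17% lower, so 0 of 13 does not set this list apart from other genes. Nkg7, a granule membrane protein, was at 2195 and 2776 CPM in the set and 2237 and 2316 in memory-like CD8 T cells. Of 14 NK receptor genes outside the rule that were tested, 4 were higher and 0 lower, and of 7 conventional NK genes outside the rule 3 were higher. This did not hold across the set. The conventional NK list, its rule genes included, summed to 10366 (mutant) and 9635 CPM (wildtype) in the NK receptor-rich subset. Cells with fewer NK receptors had 471 and 1216 CPM without a Cd4 UMI and 579 and 638 with one. Memory-like CD8 T cells had more than these, at 1573 and 1795 CPM. Of 10 tested AP-1 and immediate early genes 4 were higher and 0 lower. Klrk1, the activating receptor NKG2D, was at 688 and 621 CPM against 244 and 244 (log2 difference 1.21, SE 0.20, edgeR adjusted p = 0.00193). The Klra and Klrc genes are near-identical families, and how reads shared among them were counted is not given in the sources used here. Of 5 erythroid genes tested 4 were called higher. Their summed level was 17658 (mutant) and 248 CPM (wildtype) in cells of the set, against 2681 and 227 in memory-like CD8 T cells. The wildtype levels were thus close, and the mutant sum of the set includes the 2 haemoglobin-rich cells. Without haemoglobin-rich barcodes this contrast called 56 genes higher and 123 lower.

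Against NK cells the chosen cells had T lineage genes high and the terminal NK programme low. The gates fixed Cd3 and the NK receptor genes of the rule, so genes that go with these move with the choice of cells. Only the set was limited in B cell genes: 12 of 191 mutant and 31 of 866 wildtype NK cells had a sum of at least 2 over Cd79a, Cd79b and Ms4a1. The B cell list summed to 1695 and 1176 CPM in NK cells and 430 and 271 in the set. How far this enters the lower genes was not tested. There were 374 genes higher (6.88% of those tested) and 248 lower (4.56%), and of 99 ribosomal protein genes 79 were higher and 0 lower. All 9 tested genes of the T lineage list were higher, with a list median of 3.55 beside 0.0097 over all genes. Bcl11b, a factor that fixes T cell identity, was at 258 (mutant) and 194 CPM (wildtype) in cells of the set, against 6.98 and 17.8 in NK cells (log2 difference 3.89, SE 0.28, edgeR adjusted p = 1.15e-09). Cd5 and Cd6, surface receptors that tune T cell receptor signals, were at 52.9 and 58.8 CPM and at 106 and 61.4 CPM, against at most 4.92 in NK cells. Sit1, an adaptor that interacts with signalling phosphatases, had 12 and 22 UMIs against 1 and 2 (edgeR adjusted p = 4.92e-07).

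Cytokine genes split in this contrast. Ltb, lymphotoxin beta, was at 1045 and 795 CPM against 135 and 99.0 in NK cells (log2 difference 3.07, SE 0.17, edgeR adjusted p = 3.3e-11). Il4, the type 2 cytokine that NKT cells can release, had 5 and 10 UMIs against 0 and 1 (edgeR adjusted p = 0.00187). Ifng was not called, at 92.6 and 102 CPM against 46.5 and 81.2 (adjusted p = 0.19). The chemokine gene Ccl4 was lower, at 79.3 and 320 CPM against 1519 and 2537 (log2 difference -3.12, SE 0.23, edgeR adjusted p = 1.43e-09), and so was Ccl3 at 26.4 and 56.2 against 272 and 516. Of 9 tested chemokine and cytokine genes 2 were higher and 3 lower.

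Genes of mature NK cells were lower together. All 7 tested genes of the conventional NK list outside the rule were lower (list median -2.67), and so were 10 of 13 cytotoxic granule genes (median -1.24) and 12 of 14 other NK receptors (median -1.41), with 1 of those receptors higher. Gzma was at 919 (mutant) and 1884 CPM (wildtype) in cells of the set, against 14490 and 16619 (log2 difference -3.56, SE 0.30, edgeR adjusted p = 1.12e-08). S1pr5, the receptor by which mature NK cells leave tissue, had 0 and 3 UMIs in the set and 109 and 166 CPM in NK cells (log2 difference -4.65, SE 0.44, edgeR adjusted p = 7.53e-08). Zeb2, a factor of terminal effector maturation, was at 26.4 and 20.5 CPM against 260 and 310 (log2 difference -3.65, SE 0.27, edgeR adjusted p = 1.43e-09). These 3 genes were lower in the set than in NK cells in both libraries, a direction that their choice as named genes had fixed. Serpinb9b, Cma1, Mef2c, Itgam, Klri2 and As3mt were also lower, by log2 differences between -4.07 and -2.83. Of the fate factors 6 of 16 tested were higher, Rora and Ikzf2 among them, and 6 lower, among them Eomes (26.4 and 61.4 CPM against 214 and 227) and Tbx21 (52.9 and 56.2 against 119 and 143).

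Against other CD8-negative T cells, whose innate sum was 0 by choice, 467 genes were higher (8.59% of those tested) and 507 lower (9.33%). Genes that go with the innate sum had to differ here, and the counts describe the 2 gates. All 14 tested NK receptors outside the rule were higher (list median 4.41 beside 0.0027 over all genes), as were 11 of 13 cytotoxic granule genes. Ccl5, a chemokine stored by memory T cells and NK cells, was at 11576 (mutant) and 11580 CPM (wildtype) in cells of the set, against 457 and 911 (log2 difference 3.88, SE 0.20, edgeR adjusted p = 2.51e-12). Zbtb16 had 4 and 10 UMIs against 1 and 3, from far smaller totals (26.4 and 25.6 CPM against 0.431 and 1.26; edgeR adjusted p = 0.000628). All 6 naive T genes were lower, with a list median of -2.75. Igfbp4 was at 39.7 and 15.3 CPM against 341 and 388 (log2 difference -4.30, SE 0.26, edgeR adjusted p = 1.93e-11), and Ccr7 at 106 and 171 against 854 and 1025.

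T lineage genes themselves were lower in the set than in other CD8-negative T cells, 7 of 9 tested and 0 higher. Tcf7, a factor of naive and stem-like T cells, was at 178 and 115 CPM against 360 and 367 (log2 difference -1.67, SE 0.19, edgeR adjusted p = 4.68e-07). Migration genes changed in both directions, 6 higher and 4 lower of 16 tested. The integrin gene Itgb1 was at 304 and 274 CPM against 46.2 and 44.5 (log2 difference 2.39, SE 0.20, edgeR adjusted p = 3.23e-09), and S1pr1, the receptor that draws naive T cells into blood, was lower at 178 and 164 against 479 and 489 (log2 difference -1.76, SE 0.16, edgeR adjusted p = 2.42e-08). Ribosomal protein genes were lower in 83 of 99 cases and higher in 1. Of the type 17 and gamma-delta list, 3 of 4 tested genes were higher (Tmem176a, Tmem176b and Cd163l1), but Sox13 and Il23r had 0 UMIs in the set and Il17a 1 UMI.

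**Figure D3:**
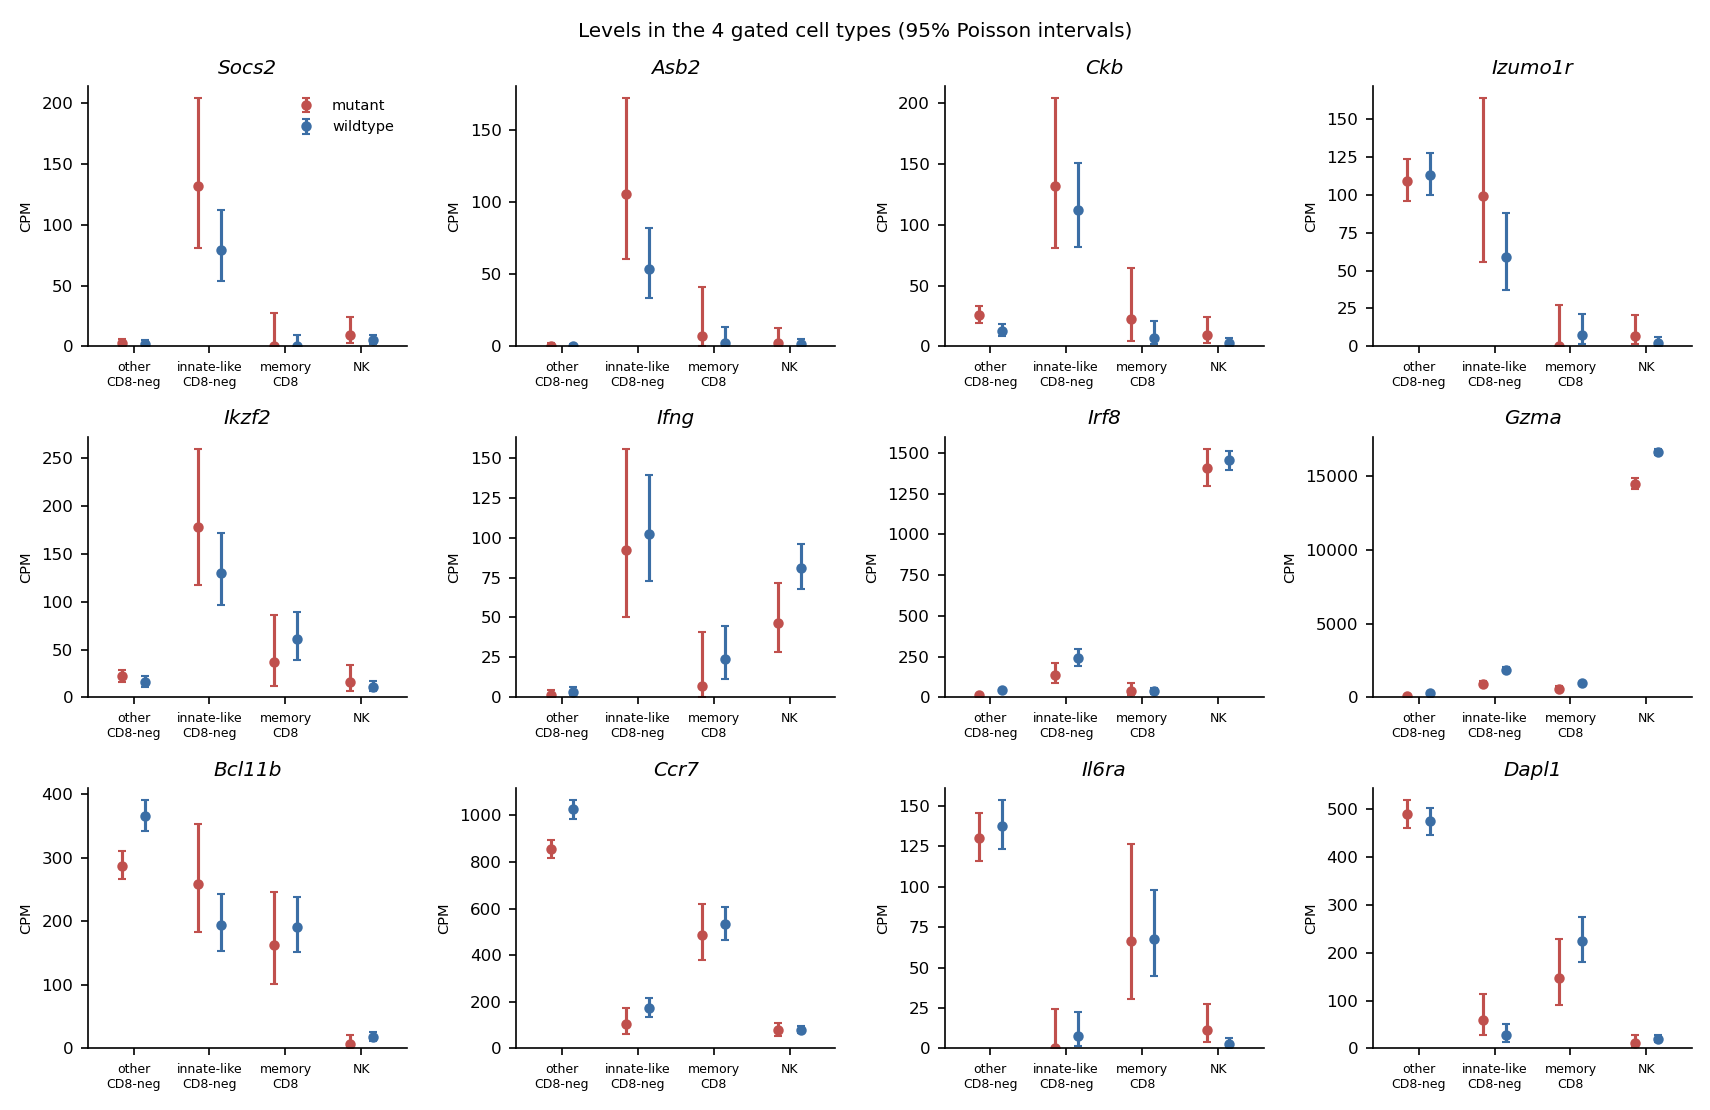
Levels in CPM of 12 genes in other CD8-negative T cells, innate-like CD8-negative T cells, memory-like CD8 T cells and NK cells, mutant and wildtype as points with exact 95% Poisson intervals for counting error. Socs2, Asb2, Ckb and Ikzf2 are highest in the innate-like CD8-negative T cells of both libraries, Izumo1r is at 109 and 113 CPM in other CD8-negative T cells, and Irf8 and Gzma are highest in NK cells.

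Between the libraries few genes of the set were 2-fold apart. Of 1525 genes with at least 50 UMIs over both libraries, 11 had a ratio of 2 or more (0.721%) and 11 a ratio of 0.5 or less (0.721%), with a median log2 ratio of -0.0066. These ratios divide the mutant by the wildtype level and carry exact conditional 95% intervals for counting error, with no adjustment for the number of genes. The 4 haemoglobin genes were among the 11 higher, at ratios of 44.3 to 172. Most of these UMIs came from mutant cells without Cxcr6 and with few NK receptors: Hbb-bs had 1045 of its 1181 mutant UMIs there. Its ratio was 132 in that subset, 10.6 in the NK receptor-rich cells and 6.70 in those with Cxcr6. The 2 haemoglobin-rich mutant cells, at 15.98% and 46.6% of all UMIs, were both among the cells with few NK receptors. The haemoglobin ratios of the set rest largely on these 2 cells and are not given as a trait of the subset. Haemoglobin RNA was also higher in mutant free RNA, where the erythroid list summed to 50485 CPM against 3559.

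The lower genes in the mutant set included effector genes. Gzma had 139 UMIs (919 CPM) in the mutant and 737 (1884 CPM) in the wildtype, a ratio of 0.488 (0.404 to 0.585). Within the NK receptor-rich subset its ratio was 0.953 (0.784 to 1.15), and in the cells with fewer NK receptors and Cxcr6 it was 0.0691 (0.0082 to 0.258), from 2 and 77 UMIs. The lower Gzma of the whole set was thus not seen within its NK receptor-rich cells. Ccl4 was at 79.3 CPM against 320, a ratio of 0.248 (0.125 to 0.449), and 0.599 (0.550 to 0.650) in NK cells. Tyrobp had a ratio of 0.554 (0.409 to 0.740), Klrd1 0.590 (0.442 to 0.779) and Klra8, a gene of the NK gate, 0.195 (0.0513 to 0.530). All of these are NK cell genes whose free RNA was also lower in the mutant, at ratios of 0.208 for Gzma, 0.316 for Ccl4, 0.553 for Tyrobp, 0.366 for Klrd1 and 0.383 for Klra8. With the free RNA profile subtracted, the ratios in the set were 0.502 for Gzma, 0.241 for Ccl4, 0.553 for Tyrobp, 0.597 for Klrd1 and 0.186 for Klra8, and 7 genes of the set were 2-fold lower in place of 11, of 1446 then measured. The amount subtracted follows the free RNA estimate given above, which the rule partly fixed. The part of the subset make-up was not tested.

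Fos and Junb, of the immediate early genes, were lower in value in the mutant. Fos, a subunit of the AP-1 factor, had 19 UMIs (126 CPM) in the mutant and 139 (355 CPM) in the wildtype set, a ratio of 0.353 (0.207 to 0.573). It was 0.872 (0.418 to 1.69) in memory-like CD8 T cells, 0.896 (0.763 to 1.05) in other CD8-negative T cells and 1.07 (0.756 to 1.51) in free RNA. Across the 3 subsets of the set Fos stood at 0.631 (0.220 to 1.48) with NK receptors, 0.388 (0.148 to 0.863) with Cxcr6 and 0.198 (0.069 to 0.464) without. Junb had a ratio of 0.724 (0.635 to 0.823) in the set and 0.752 (0.720 to 0.787) in other CD8-negative T cells. Of the 8 measured immediate early genes 1 was past 2-fold, with a median log2 ratio of -0.17, and Dusp1, a phosphatase gene, was at 483 CPM in mutant against 432 in wildtype cells. Thinning each cell to 800 UMIs left too few Fos UMIs to keep the direction (2.25, with an interval of 0.746 to 7.11).

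Higher in the mutant set were Ifi27l2a, an interferon-induced gene, Lef1 and Il16, among others. Ifi27l2a was at 641 (mutant) and 350 CPM (wildtype), a ratio of 1.83 (1.40 to 2.39), and had ratios of 3.53 (2.66 to 4.69) in memory-like CD8 T cells, 2.62 (1.90 to 3.59) in NK cells and 1.12 (1.05 to 1.20) in other CD8-negative T cells. With an innate sum of at least 4 its ratio was 1.14 (0.809 to 1.58). Lef1, a factor of naive T cells, was at 225 CPM against 102, a ratio of 2.20 (1.35 to 3.56), and 1.31 (0.738 to 2.29) without the NK receptor-rich cells. Il16 had a ratio of 2.40 (1.35 to 4.25) in the set and 2.17 (1.20 to 3.86) in memory-like CD8 T cells. Txnip and Pdcd4, a pair of growth-restraining genes, had ratios of 1.67 and 1.57 in the set and 1.32 and 1.30 in other CD8-negative T cells. Pcnp, Ptpn7, Prpf4b, Pnn and Ttc14 had ratios between 1.97 and 2.59. Of the 5 measured interferon genes 0 were past 2-fold, with a median log2 ratio of 0.60.

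**Figure D4:**
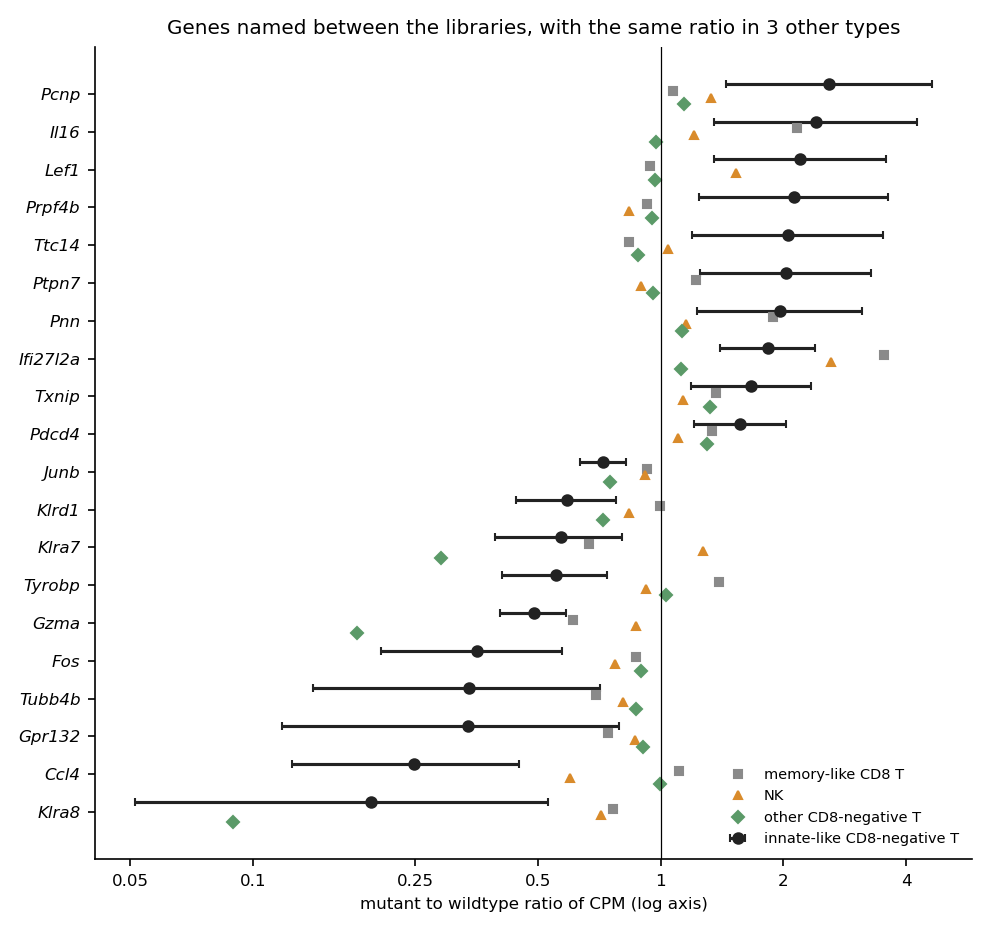
Mutant to wildtype ratio of CPM on a log axis for the 20 genes named between the libraries, in innate-like CD8-negative T cells (black points with exact 95% conditional intervals) and, without intervals, in memory-like CD8 T cells, NK cells and other CD8-negative T cells. Ccl4 and Fos lie below 0.4 in the innate-like CD8-negative T cells and above 0.55 in the 3 other types, and Ifi27l2a lies further above 1 in memory-like CD8 T cells and NK cells than in the set.

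In the subset with Cxcr6 and few NK receptors the libraries stood apart in several genes. Its Ccl5 was at 2345 (mutant) and 10260 CPM (wildtype), a ratio of 0.229 (0.185 to 0.280), although the level over the whole set was equal, and in the NK receptor-rich subset Ccl5 had a ratio of 2.01 (1.85 to 2.18). A Ccl5 UMI was present in 16 of 17 mutant and 38 of 44 wildtype cells of the Cxcr6 subset. In it, Socs2 and Asb2 were higher in the mutant, at ratios of 2.37 (1.13 to 4.91) and 3.46 (1.40 to 8.81), as was Id2 at 1.76 (1.28 to 2.40), while Ly6c2 stood at 0.146 (0.0387 to 0.390). These ratios come from 17 and 44 cells of 1 pool each, and the subset was chosen after its values were seen.

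The pathway hit by the mutation was barely sampled in these cells. Mvk had 0 UMIs in the mutant set, which allows up to 19.8 CPM, and 2 in the wildtype set. The 16 genes of the mevalonate and sterol pathway summed to 36 UMIs in the mutant (238 CPM) and 160 in the wildtype (409 CPM), and 0 of them reached 50 UMIs, so a difference per gene was not detectable at this depth. Of the 8 tested across cell types, 0 were called against memory-like CD8 T cells or other CD8-negative T cells by edgeR and 3 were higher than in NK cells. The list summed to between 156 and 231 CPM in the 3 other types of both libraries. In the wildtype set it was at 417 CPM in NK receptor-rich cells. The wildtype cells with fewer NK receptors had 1277 CPM in the 9 with a Cd4 UMI and 279 without. The same mutant subsets had 228, 193 and 251 CPM. The cells with a Cd4 UMI held 28200 UMIs of all genes in the wildtype and, in 6 cells, 20741 in the mutant. Their list levels thus rest on few UMIs, carry no interval and are not given as a difference between the libraries. The level of the whole wildtype set includes these 9 cells.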

How the data were processed

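Droplet 3' RNA sequencing of 2 pooled blood samples gave UMI counts per gene and barcode (27998 genes, 737280 barcodes). Per the submitters' processing notes Cell Ranger 2.1.1 and mm10 were used. The authors deposited raw counts, not normalized. Barcodes with at least 800 UMIs, 200 genes and at most 10% mitochondrial UMIs were kept. Doublets were scored with Scrublet (scanpy 1.11.5) and removed only as an alternative. Counts were summed per library and cell type. edgeR 4.0.16 (R 4.3.3; TMM, filterByExpr, quasi-likelihood) compared cell types, and DESeq2 1.42.0 was an alternative; the code was tested on simulated data. Between genotypes, CPM ratios with exact conditional intervals were computed (scipy 1.17.1), with no test. Intervals and floors (3 counts) cover counting error only. In each contrast of cell types the rule named the 12 higher and 12 lower called genes of largest change, at least 1.5-fold apart in each library and at 50 CPM or more in 1 type, and between genotypes 10 genes per direction, ranked by how far the near end of the interval lay from 1; ribosomal, mitochondrial and haemoglobin genes were left out, and genes of 27 lists were added. Members, lists and rules were chosen with earlier results of these data known. Besides 17 other settings, 2 were chosen after seeing the data. Gene positions are from GENCODE on GRCm38. Some genes are not reported here.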

Additional observations from a re-analysis of the deposited data

Results flagged for a closer look

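Klra7, a receptor gene of the Ly49 family, had a mutant to wildtype ratio of 0.568 (0.393 to 0.804) in innate-like CD8-negative T cells and of 1.27 (1.14 to 1.41) in NK cells. It was singled out because the intervals lie on opposite sides of 1. The difference was not tested, with 1 pool per genotype. Reads of the near-identical Klra genes may be shared between them. The free RNA ratio of Klra7 was 0.598 (0.395 to 0.890).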

How the results depend on the processing

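No paired analysis was possible because each genotype is 1 library; the library is already a block in the contrasts of cell types. Without the NK receptor-rich cells the set was 1.002% of all, 1.86% of T and 3.24% of CD8-negative T cells in the mutant and 1.53%, 2.82% and 5.58% in the wildtype. Gating after thinning to 800 UMIs gave 0.477%, 1.36% and 1.95% in the mutant and 0.670%, 1.95% and 2.96% in the wildtype (ratio over CD8-negative T cells 0.658). An innate sum of at least 4 gave wildtype shares of 2.09%, 3.84% and 7.60%. Against memory-like CD8 T cells 28 genes were higher with DESeq2, 30 higher and 49 lower with an innate sum of at least 4, 24 and 44 without NK receptor-rich cells, and 39 and 72 with few NK receptors in both gates. Thinning left no mutant memory-like CD8 T cell for this contrast. Against NK cells 99 were lower with DESeq2, and 23 were higher and 81 lower after thinning. Against other CD8-negative T cells DESeq2 gave 308 higher and 244 lower, the set without NK receptor-rich cells 291 and 306, few NK receptors in both gates 289 and 305, and thinning 51 and 202. Between genotypes, genes 2-fold higher and lower numbered 6 and 6 without NK receptor-rich cells, 1 and 3 after thinning, 101 and 203 when 20 UMIs sufficed, and 4 and 3 at 100 UMIs; 7 were lower with free RNA subtracted. Irf8 against memory-like CD8 T cells turned to -0.33 without NK receptor-rich cells of the set and was 0.95 with few NK receptors in both gates. After thinning, ratios turned for Pcnp (0.583), Ifi27l2a (0.795), Pnn (0.700), Ttc14 (0), Fos (2.25) and Klra7 (1.75), from far fewer UMIs. The rule for named contrast genes fixed their direction in each library alone. Unless fewer cells or UMIs enter by construction, the cause was not tested.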
